A study of Mus musculus with 32 samples.

Results

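Megakaryocyte-erythrocyte progenitors (MEPs) of mouse bone marrow were compared between 20-month-old (aged) and 10-week-old (young) mice. Of the 32 RNA sequencing libraries of the series, 4 were of MEPs, 2 from young and 2 from aged animals, and these 4 were chosen by their labels alone. All were sorted from untreated female C57BL/6 mice as bone marrow cells carrying c-Kit and lacking lineage antigens, IL-7Rα, Sca-1, CD34 and Fcγ receptors, and the same gate was used at both ages. One statement in the study says that marrow was pooled by age before it was sorted in duplicate, and another calls the duplicates biological. The p-values therefore measure the spread between libraries, which may not include the spread between mice. The remaining 28 libraries, of 7 other stem and progenitor fractions at the same 2 ages, were used to estimate that spread and as a reference for levels.

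MEPs are committed progenitors that give rise to the precursors of red cells and of platelet-forming megakaryocytes. The factors GATA1, KLF1, TAL1 and GFI1B direct the erythroid programme in them, and the erythropoietin receptor sustains their later descendants. Lymphoid and granulocytic genes are normally switched off in this branch.

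The young MEP libraries held 16351862 and 14548313 counts and the aged ones 11237384 and 12127426. Levels are given in CPM, counts scaled to a common library total, with TMM factors so that libraries of different composition can be compared. Duplicates differed by 0.565 (root mean square of the log2 difference over genes) in young MEPs and by 0.374 in aged MEPs, and the other 14 groups had values from 0.293 to 0.523, so young MEPs had the largest. Over the 14154 genes tested, 1285 were called higher (9.08%) and 1658 lower (11.7%) in aged MEPs at an adjusted p under 0.01, by the quasi-likelihood test of edgeR with Benjamini-Hochberg adjustment. Of the 10850 tested genes that reached 1 CPM in at least 2 MEP libraries, 1239 were higher and 1507 lower. The calls that were lower were larger in size, with a median log2 fold change of -0.92 against 0.59 for those that were higher, and 796 of the lower calls but 249 of the higher ones reached an absolute log2 fold change of 1. In 56.6% of tested genes both libraries of one age lay above both of the other, so a lack of overlap between 2 libraries and 2 is common here.

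The balance of the calls moved with the processing. Offsets for GC content and gene length, which differed between the calls (median GC content 54.4% for higher, 46.3% for lower and 49.5% for genes not called), gave 2085 higher and 1180 lower, and leaving genes with low counts in the table gave 883 and 2004. A fit on the 4 MEP libraries alone called 311 higher and 423 lower, and 94.1% of those genes were also among the calls of the full fit. Leaving out aged replicate 2 gave 585 higher and 1098 lower, leaving out aged replicate 1 gave 778 and 1126, and leaving out either young replicate gave 891 or 929 higher and 1490 or 1686 lower.

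**Figure D1:**
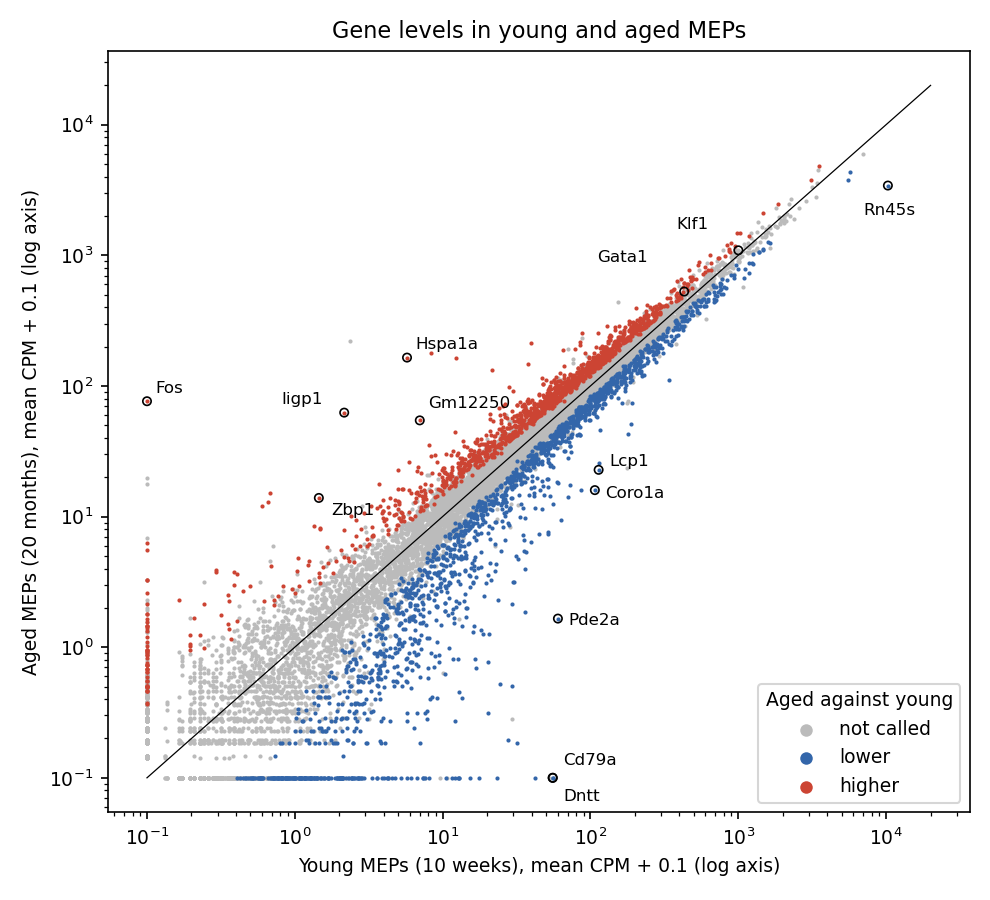
Mean level of each gene in young MEPs (horizontal) and aged MEPs (vertical), in CPM plus 0.1 on log axes. Each point is a gene with a count in at least 1 MEP library, red and blue points were called higher and lower in aged MEPs, grey points were not called, circled genes are named and the line marks equal levels. The blue points spread further from the line than the red ones, down to genes such as Cd79a and Dntt with 0 counts in both aged libraries.

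The transcripts that define MEPs were present at both ages. Klf1, which encodes the erythroid Krüppel-like factor (chromosome 8, 84901928 to 84905291, GRCm38), was at 1030 and 974 CPM in the young and 1119 and 1065 CPM in the aged libraries. Gata1 (chromosome X, 7959260 to 7978071), the master regulator of this branch, had 417 and 445 CPM in young and 529 and 527 CPM in aged MEPs. Neither was called, with adjusted p-values of 0.648 for Klf1 and 0.125 for Gata1 (edgeR). In the other 7 fractions the group means of Gata1 did not exceed 45.8 CPM and those of Klf1 did not exceed 15.4 CPM, and the label matched these markers.

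Other regulators of the branch, some of them named after their values were seen as were others below, were not called in the full fit either. Gfi1b had means of 481 and 570 CPM, Tal1 91.1 and 93.5 CPM, and Kit, the stem cell factor receptor used in the gate, 338 and 391 CPM in young and aged MEPs. Epor, the erythropoietin receptor, had 228 and 235 CPM in young and 353 and 368 CPM in aged libraries, which do not overlap, but its adjusted p of 0.0158 (edgeR) missed the threshold. Epor was called higher by DESeq2 (log2 fold change 0.60, adjusted p 3.58e-03) and with offsets for GC content and length (0.62, adjusted p 5.52e-03, edgeR). The edgeR fit on the 4 MEP libraries alone also called it higher (0.62, adjusted p 4.24e-03). Car1, the carbonic anhydrase of early erythroid cells and among the most abundant transcripts, had means of 3472 and 4499 CPM with an adjusted p of 0.519 (edgeR). It was called higher in the fit on the 4 MEP libraries alone (log2 fold change 0.35, adjusted p 3.3e-03, edgeR).

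Of 38 transcription factors of the erythroid and megakaryocytic branches, 6 were higher (15.8%, against 9.08% of all tested genes), 12 lower (31.6%, against 11.7% of all tested genes) and 20 not called, and the median log2 fold change was 0.00. Among the factors that fell were several shared with other blood lineages. Ets1, a factor of lymphoid cells and megakaryocytes, fell by 3.27 on the log2 scale (SE 0.19, adjusted p 2.77e-11), from 32.3 and 27.3 to 2.62 and 3.53 CPM. Fli1, which drives megakaryocytic genes, fell from 33.5 and 55.9 to 7.50 and 7.06 CPM (log2 fold change -2.62, SE 0.17). Spi1, encoding PU.1 of the myeloid and lymphoid lineages, fell from 16.5 and 13.8 to 3.19 and 3.61 CPM (log2 fold change -2.15, SE 0.13). Cbfb, the partner of the RUNX factors, fell from 80.7 and 65.6 to 16.6 and 17.8 CPM (log2 fold change -2.09, SE 0.11). For each of these 4 genes both aged libraries lay below both young ones by more than the duplicates differed. Among the 6 that rose, E2f4, a cell cycle repressor needed for red cell formation, went from 448 and 483 to 768 and 782 CPM (log2 fold change 0.73, SE 0.07).

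Genes of the red cell programme were called in both directions. Heme synthesis genes had 5 higher and 2 lower of 24 (29.2% called, against 20.8% over all tested genes), and red cell membrane genes 1 higher and 5 lower of 33 (18.2% called). When any 1 MEP library was left out, 2 to 3 heme genes were higher, and 1 to 4 membrane genes and 1 to 3 iron genes were lower. Ppox, an enzyme of the heme pathway, rose from 78.6 and 83.8 to 123 and 130 CPM (log2 fold change 0.64, SE 0.11, adjusted p 1.74e-04). Alas1, the first enzyme of the pathway outside the erythroid line, rose by 0.43 (SE 0.07). Epb4.1, a protein of the membrane skeleton and the 1 membrane gene called higher, rose from a mean of 230 to 329 CPM. That call was lost in the edgeR fit on the 4 MEP libraries alone (log2 fold change 0.4955, adjusted p 0.0123). Of the 5 membrane genes called lower, Slc4a1 fell from a mean of 51.8 to 7.54 CPM, Slc2a1 from 4.89 to 0.953 CPM and Tmod3 from 108 to 75.8 CPM. Hmox1, which degrades heme, had 79 and 39 counts in young and 0 and 0 in aged libraries. Iron handling genes had 1 higher and 4 lower of 18 (27.8% called), and Ncoa4, the receptor that delivers ferritin for breakdown, fell from 206 and 193 to 144 and 130 CPM (log2 fold change -0.54, SE 0.08). Tfrc, the transferrin receptor, fell from a mean of 1181 to 733 CPM (log2 fold change -0.69, adjusted p 1.46e-03), a call that was lost without young replicate 1 (log2 fold change -0.64, adjusted p 0.0131), without aged replicate 1 (-0.64, adjusted p 0.0241) and with offsets for GC content and length (-0.37, adjusted p 0.0204).

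Globins were lower in level in aged MEPs without being called. Hba-a1, an alpha globin, had 203 and 150 CPM in young and 22.4 and 24.5 CPM in aged MEPs with an adjusted p of 0.0165 (edgeR), and Hbb-b1, a beta globin, had 179 and 174 against 72.3 and 76.1 CPM with an adjusted p of 0.0366. None of the 7 tested globins was called in the full fit, while the fit on the 4 MEP libraries alone called 4 of them lower. The summed globin level was 1157 and 1139 CPM in young MEPs and 493 and 513 CPM in aged MEPs. In young common lymphoid progenitors (CLPs) it was 2331 and 2427 CPM, above the level in MEPs, so globin counts at these levels were found in fractions outside the erythroid branch too. The fall with age was not particular to MEPs. The sum went to 872 and 132 CPM in aged CLPs, and from 1525 and 1303 to 143 and 55.3 CPM in granulocyte-macrophage progenitors (GMPs). Both aged libraries also lay below both young ones in each multipotent progenitor (MPP) fraction. Stem cells had 1237 and 1377 CPM in young and 1158 and 1582 CPM in aged libraries.

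Erythroid maturation genes had 1 higher and 8 lower of 26 (30.8% lower, against 11.7% over all tested genes), with a median log2 fold change of -0.04. Hemgn, a nuclear protein of erythroid differentiation, fell from 306 and 311 to 201 and 158 CPM (log2 fold change -0.78, SE 0.12), and Xpo7, an exportin with a part in red cell nuclear condensation, fell from a mean of 28.6 to 17.9 CPM (log2 fold change -0.67, SE 0.09). Erythropoietin signalling genes had 2 higher and 4 lower of 27 (22.2% called, against 20.8% over all tested genes). Socs2, a feedback inhibitor of cytokine signalling, fell from 6.98 and 4.88 to 0.843 and 1.29 CPM, and Lyn, a kinase downstream of the receptor, fell from 56.8 and 54.3 to 28.9 and 30.1 CPM (log2 fold change -0.91, SE 0.10).

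**Figure D2:**
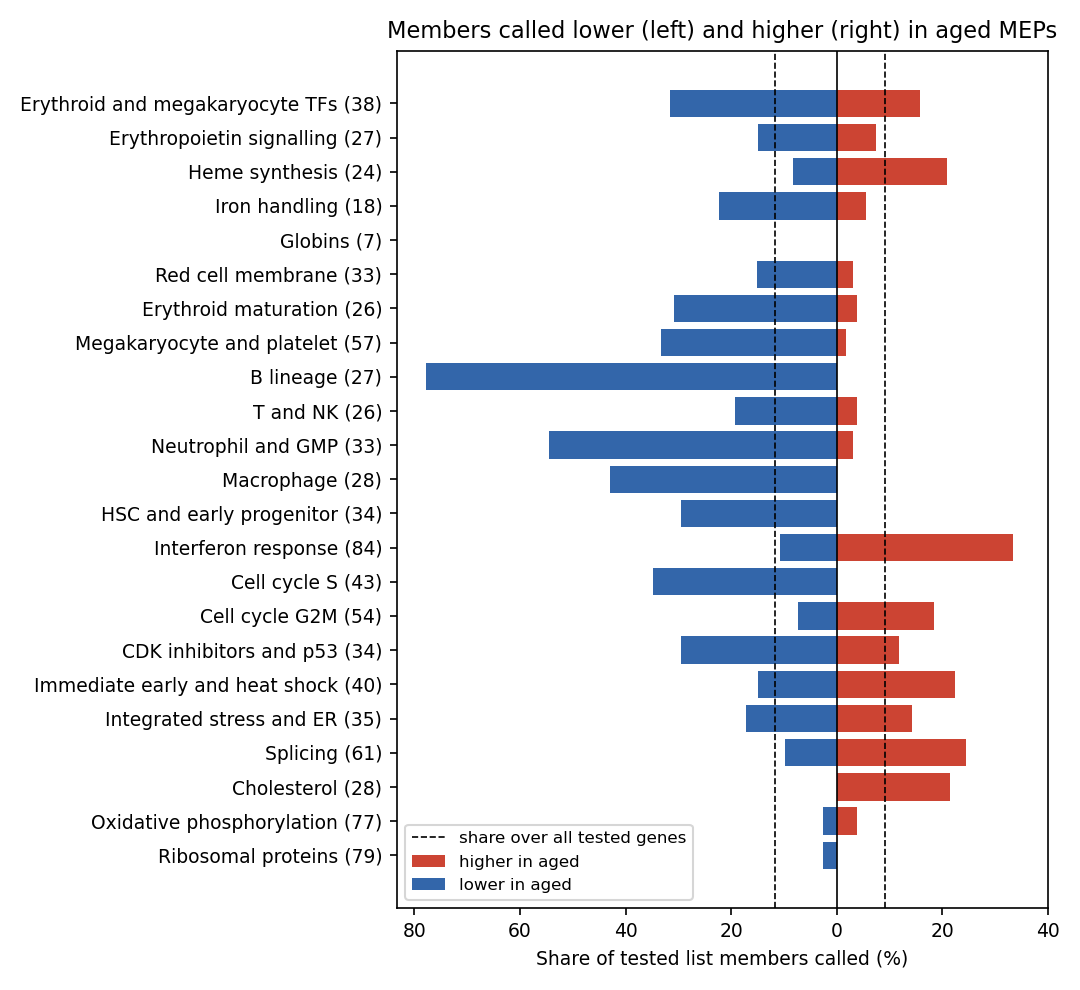
Share of the tested members of gene lists, other than those of gate antigens, progenitor stages, basophils, plasma cells and aged stem cells, that was called lower (blue, to the left) and higher (red, to the right) in aged MEPs, in percent, with the number tested in parentheses and dashed lines at the shares over all tested genes. Of the lists drawn, those of the B lineage, neutrophils and macrophages reach furthest to the left and the interferon list furthest to the right, while ribosomal and oxidative phosphorylation lists stay inside the dashed lines.

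Megakaryocyte and platelet genes had 1 higher and 19 lower of 57 (33.3% lower, against 11.7% over all tested genes), with a median log2 fold change of -0.95. Their summed level moved less, from 2027 and 2117 CPM in young to 1807 and 1852 CPM in aged MEPs. With genes at least 10 times higher in another young fraction set aside, a choice made after seeing the data, 7 were called lower. Plek, the main protein kinase C substrate of platelets, fell from 46.5 and 23.8 to 6.75 and 6.37 CPM (log2 fold change -2.43, SE 0.23, adjusted p 8.48e-08). Nbeal2, needed for platelet alpha granules, fell from 3.59 and 11.6 to 1.41 and 1.38 CPM, with young duplicates far apart. Cd9, a tetraspanin of megakaryocytes, fell from 25.03 and 25.12 to 12.2 and 10.3 CPM (log2 fold change -1.16, SE 0.19). Pf4 and Vwf, classical markers of the lineage, were lower in level but not called in the full fit. Pf4 had means of 23.3 and 11.4 CPM (adjusted p 0.0312) and Vwf 27.4 and 16.7 CPM (adjusted p 0.023, both by edgeR). DESeq2 called both lower, with adjusted p-values of 7.97e-03 for Pf4 and 9.88e-04 for Vwf. Itga2b, the integrin chain CD41, was called lower in the full fit, with means of 32.5 CPM in young and 20.0 CPM in aged MEPs. The count of lower calls was 9 without aged replicate 2, 11 without aged replicate 1, 14 without young replicate 2 and 21 without young replicate 1.

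Genes of early B cells were among the steepest falls. Of 27 B-lineage genes 21 were called lower and 0 higher (77.8% called, against 11.7% of all tested genes called lower), with a median log2 fold change of -6.14, and the count was 18 to 20 when any 1 MEP library was left out. Cd79a, the signalling chain of the B cell receptor (chromosome 7, 24897381 to 24902197), had 836 and 801 counts in the young and 0 and 0 in the aged libraries, and the level in young cells was at least 206-fold higher than a floor of 3 counts in each aged library. Dntt, the terminal transferase of developing lymphocytes, had 864 and 773 counts in young and 0 and 0 in aged MEPs (at least 205-fold). Igll1, a surrogate light chain, had 689 and 559 counts against 0 and 0 (at least 156-fold). The young libraries were alike and the aged ones held no read of these genes.

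Vpreb1, the second surrogate light chain, fell from 32.3 and 26.0 to 0.375 and 0.430 CPM (log2 fold change -6.14, SE 0.31), and Blnk, a B cell adaptor, from 36.1 and 36.2 to 1.22 and 2.32 CPM (log2 fold change -4.33, SE 0.30). The receptor Il7r, an antigen that the gate selects against, had 156 and 234 counts in young and 2 and 5 in aged MEPs (log2 fold change -5.37, SE 0.46). The summed level of the list was 570 and 583 CPM in young MEPs, which was 5.47% of the level in young CLPs, and 60.2 and 84.0 CPM in aged MEPs, 0.570% of that in aged CLPs. In young GMPs it was 230 and 235 CPM and in aged GMPs 233 and 253 CPM, below the young MEPs at both ages. The means of Cd79a, Dntt, Igll1, Ebf1 and Pou2af1 in GMPs did not exceed 1.615 CPM at either age, so other members made up most of the GMP sums. In aged MEPs, Cd37, Cd74 and Cecr2 had 27.3, 25.5 and 12.65 CPM, and no other member exceeded 2.65 CPM. Fewer cells of a type and less of its RNA in each cell cannot be told apart in bulk samples such as these.

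Relative to young CLPs the B-lineage genes of young MEPs did not stand in 1 ratio. Rag2 reached 21.3% of the CLP level, Ebf1 10.6%, Pou2af1 10.3%, Cd79a 5.62% and Dntt 3.18%. Ly6d, which marks B-biased lymphoid progenitors, was at 0.351%, Ms4a1 (CD20) at 0.658% and Blk at 0.0575%, while Cd22 and Bank1 had 0 counts in young MEPs against 62.6 and 35.3 CPM in young CLPs. Cecr2 was at 20.3%, Cd37 at 11.7%, Pax5 at 4.37% and Rag1 at 3.27%, so the recombinase partners Rag1 and Rag2 were far apart. In aged MEPs, Cecr2 and Cd37 were still at 16.65% and 7.91% of the aged CLP level. Some ratios rested on few reads, with Pax5 at a mean of 0.347 CPM in young MEPs. Ms4a1 and Blk were counted in young replicate 1 only, with log2 fold changes of 0 without it. Of 10 genes of the antigens used to gate or exclude cells, 5 were lower and 0 higher (2 to 4 lower when any 1 MEP library was left out), among them Fcgr2b with 15 and 23 counts in young and 0 and 0 in aged MEPs. The 5 lower genes were 50% of that list, against 11.7% called lower over all tested genes. Cd34 had 2 and 8 counts in young and 7 and 7 in aged MEPs and Ly6a (Sca-1) 8 and 0 against 0 and 9, both near the floor at both ages.

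**Figure D3:**
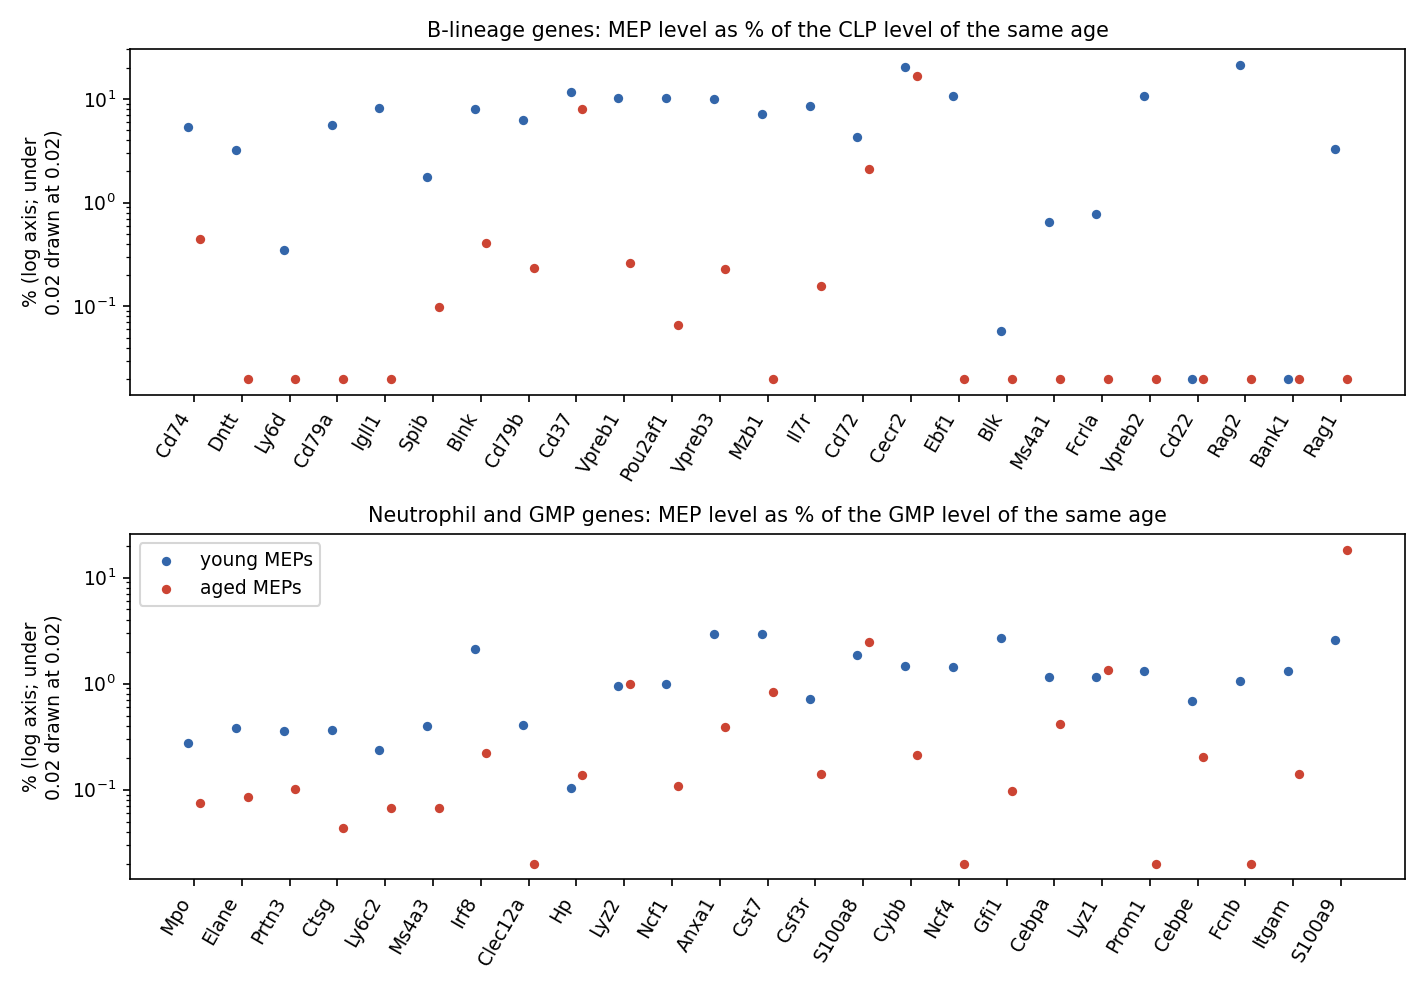
Mean MEP level of B-lineage genes as a percentage of the CLP level (top) and of neutrophil and GMP genes as a percentage of the GMP level (bottom), each at the same age, on log axes, for genes with at least 20 CPM in the young reference fraction. Young MEPs (blue) stand above aged MEPs (red) for most genes, the exceptions being granule genes such as S100a8 and S100a9, with Rag2 at 21.3% and Cd79a at 5.62% of the CLP level but Ly6d, Blk, Ms4a1 and Fcrla under 0.785%, and with Mpo at 0.273% of the GMP level.

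The list of neutrophil and GMP genes, which holds granule genes and also receptors and transcription factors, had 18 lower (54.5%, against 11.7% of all tested genes) and 1 higher of 33 and a median log2 fold change of -1.82. Mpo, the myeloperoxidase, had 3096 and 2492 counts in young and 880 and 227 in aged MEPs, so the aged duplicates differed more than the young ones. The call of Mpo (log2 fold change -1.89, adjusted p 1.17e-03) was lost without aged replicate 2 (-1.24, adjusted p 0.0134), and that of the elastase Elane (-2.19, adjusted p 5.02e-04) likewise (-1.49, adjusted p 0.0106). Ms4a3, another granulocyte gene, lost its call without aged replicate 2 (log2 fold change -1.59, adjusted p 0.0482) and without young replicate 1 (-2.28, adjusted p 0.0247). In young MEPs the genes Mpo, Elane, Prtn3, Ctsg and Ms4a3 stood at 0.273% to 0.401% of the level in young GMPs, and in aged MEPs at 0.0438% to 0.101% of that in aged GMPs. Irf8, a factor of monocytes and dendritic cells, was at 2.12% of the young GMP level and fell from 19.6 and 27.3 to 1.87 and 2.50 CPM (log2 fold change -3.41, SE 0.19, adjusted p 2.37e-11). Clec12a, a myeloid lectin receptor, had 63 and 41 counts in young and 0 and 0 in aged MEPs. Without aged replicate 2 the list had 12 lower calls. The granule genes S100a8 and S100a9 were counted in 1 of the aged libraries only, and neither was called. S100a8 had 66 and 47 counts in young and 43 and 0 in aged MEPs. S100a9 had 17 and 13 against 44 and 0. Ngp, a secondary granule gene and the 1 member called higher, had 0 and 0 counts in young and 15 and 9 in aged MEPs. Its call was lost when any 1 MEP library was left out (adjusted p 0.0168 to 0.0621). Ltf, which encodes lactoferrin, had 0 and 0 counts in young and 26 and 0 in aged MEPs and was not called. It was called without aged replicate 2 (adjusted p 2.85e-03). The granule genes Mmp8 (0 and 0 against 9 and 0), Lcn2 (0 and 0 against 5 and 0) and Camp (0 and 10 against 9 and 0) were not called. Mmp8 was called without aged replicate 2 (adjusted p 9.51e-03).

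Macrophage genes had 12 lower (42.9%, against 11.7% of all tested genes) and 0 higher of 28, but their summed level moved less, from 254 and 274 CPM in young to 196 and 194 CPM in aged MEPs. Mpeg1, a perforin of macrophages, fell from 9.16 and 14.4 to 1.31 and 1.81 CPM (log2 fold change -2.89, SE 0.44), and C1qa, a complement chain, had 12 and 12 counts against 0 and 0, a call that was lost without aged replicate 2 (adjusted p 0.0119). The count of lower macrophage genes was 7 without either aged replicate. Genes of stem and early progenitor cells had 10 lower (29.4%) and 0 higher of 34, with a median log2 fold change of -0.60. Cd48, a signalling lymphocyte receptor absent from stem cells, fell from 52.95 and 52.98 to 13.4 and 15.1 CPM (log2 fold change -1.89, SE 0.12), Meis1, a stem cell homeobox factor, from 11.8 and 19.5 to 4.78 and 3.79 CPM, and Flt3, a receptor of lymphoid-primed progenitors, from 44 and 16 counts to 0 and 0. Of T and natural killer cell genes 1 was higher and 5 lower (19.2%) of 26, and Nkg7, a granule protein, fell from 26.2 and 30.3 to 8.15 and 8.86 CPM (log2 fold change -1.73, SE 0.14). The summed level of the neutrophil and GMP list was 384 and 355 CPM in young and 145 and 44.1 CPM in aged MEPs, and that of the T and natural killer list 76.6 and 81.8 against 37.4 and 50.5 CPM. The summed levels of the B-lineage, neutrophil, macrophage, stem cell and T cell lists were all lower in both aged libraries than in both young ones, and the part of the cells within the gate in each of these results was not tested.

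Genes that the other fractions express strongly were among those with the smallest p-values. Coro1a, an actin regulator of leukocytes (chromosome 7, 126699773 to 126707787), had 105 and 109 CPM in young and 17.0 and 14.7 CPM in aged MEPs (log2 fold change -2.76, SE 0.08, adjusted p 4.42e-16). Its group means in the other 7 fractions ran from 934 to 1895 CPM, with log2 fold changes with age between -0.18 and 0.07. Lcp1, the leukocyte plastin that bundles actin (chromosome 14, 75131101 to 75230842), had 110 and 117 CPM in young and 21.5 and 23.9 CPM in aged MEPs (log2 fold change -2.32, SE 0.07), against 840 to 1662 CPM elsewhere. Pkm, the pyruvate kinase of most blood cells (chromosome 9, 59656368 to 59679375), had 70.4 and 71.0 CPM in young and 13.7 and 14.3 CPM in aged MEPs (log2 fold change -2.34, SE 0.07), while it was called higher with age in 6 of the other 7 fractions. In each of the 3 genes young MEPs stood far below every other fraction and aged MEPs further below.

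Rasgrp2, the exchange factor that activates RAP1 in platelets and leukocytes (chromosome 19, 6399340 to 6415216), went from 244 and 241 counts to 8 and 8 (log2 fold change -4.50, SE 0.15). Rcsd1, a capping protein regulator (chromosome 1, 165646516 to 165709757), went from 18.25 and 18.95 to 1.12 and 1.20 CPM (log2 fold change -3.98, SE 0.12). Pde2a, a cyclic nucleotide phosphodiesterase (chromosome 7, 101421691 to 101512827), went from 55.9 and 64.4 to 1.22 and 1.89 CPM (log2 fold change -5.25, SE 0.14), and its level in young MEPs lay within the 29.8 to 668 CPM of the other groups. The duplicates of Rasgrp2 and Rcsd1 were nearly equal at each age, and those of Pde2a differed more in aged than in young MEPs. Over all genes called lower, 526 of 1658 (31.7%) had a mean at least 10 times higher in another young fraction than in young MEPs, against 127 of 1285 genes called higher (9.88%). The share was 25.1% of all tested genes, but 8.13% (882 of 10850) of those that reached 1 CPM in at least 2 MEP libraries. With all genes of that kind set aside, an alternative chosen after seeing the data, 1158 genes were higher and 1132 lower.

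**Figure D4:**
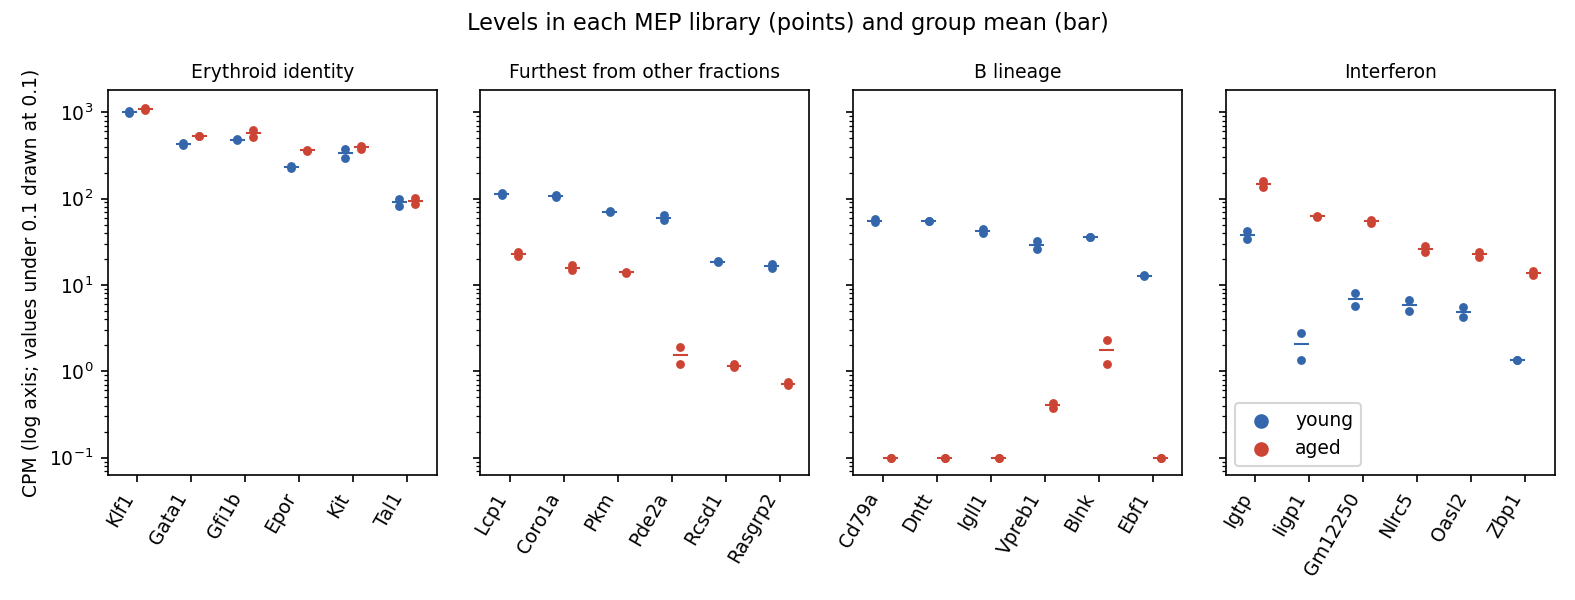
Level of 24 genes in each young (blue) and aged (red) MEP library, in CPM on a log axis, with a bar at the group mean and values under 0.1 CPM drawn at 0.1. The erythroid genes, none of them called in the full fit, lie closer together between ages than the genes of the other panels. The genes furthest from the other fractions and the B-lineage genes are lower in both aged libraries, and the interferon genes are higher in both, with Cd79a at 0 counts in each aged library.

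The 12 largest rises were Fos, Hspa1a, Hspa1b and Hspa1l, the interferon-inducible GTPase genes Iigp1, Gm4951, Gm12185, Gm4841 and Gm12250, and Zbp1, H2-Q9 and Dsc2. Gm4951 had 0 and 0 counts in young and 53 and 68 in aged MEPs, at least 26.6-fold over the floor, and Gm12185 rose from 8 and 9 counts to 134 and 203 (log2 fold change 4.69, SE 0.29). H2-Q9, a class I gene with near-identical copies, rose from 10.8 and 13.6 to 148 and 177 CPM (log2 fold change 3.74, SE 0.77), a call that was lost without young replicate 1 (3.54, adjusted p 0.0151). In young and aged GMPs its means were 11.1 and 187.9 CPM, and it was at 118.5 CPM or more in the other young fractions. Dsc2, a desmosomal cadherin, had 0 and 0 counts in young and 64 and 75 in aged MEPs. Among the largest falls beside B-lineage genes were Gfra2 and Gfra1, receptors of the GDNF family, with 271 and 107 and with 218 and 96 counts in young MEPs and 0 in each aged library, and Alpl, the tissue-nonspecific alkaline phosphatase, with 225 and 136 counts against 0 and 0. In young CLPs these 3 genes had means of 97.51, 70.56 and 82.81 CPM, and in the HSC, MPP and GMP fractions they did not exceed 5.82 CPM.

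Counts near 0 were searched for genes that one age lacked. With at most 3 counts in both libraries of one age and at least 10 CPM in both of the other, 2 genes were found in aged but not young and 13 in young but not aged MEPs. The same numbers were 0 to 1 and 0 to 2 in the stem cell, MPP and GMP fractions, and 1 and 6 in CLPs. Of the 13 genes, 8 were members of the B-lineage list, among them Cd79a, Dntt, Igll1, Pou2af1, Ebf1, Rag2 and Mzb1, and Lef1, a factor of lymphoid progenitors, had 369 and 552 counts in young and 0 and 2 in aged MEPs. Pik3ap1, an adaptor of B cells and myeloid cells, had 199 and 249 counts in young and 0 and 0 in aged MEPs although it was at 24.3 CPM or more in each of the other 28 libraries. Bcat1, an amino acid transaminase, had 308 and 217 counts in young and 0 and 0 in aged MEPs and was present in each of the other 28 libraries at 0.634 CPM or more. Gm6981 and Hist2h2aa2 were not called (adjusted p 0.0294 and 0.0526), and the second is a histone gene with near-identical copies whose counts are uncertain.

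The 2 genes at or under that floor in young MEPs were Fos and Gm6182. Fos, an immediate early gene that stress of many kinds induces within minutes (chromosome 12, 85473890 to 85477273), had 0 and 0 counts in young and 910 and 782 in aged MEPs, at least 374-fold more than the floor of 3 counts in each young library. Fos was at 15.3 CPM or more in each of the other 28 libraries, and its means were 17.2 CPM in young GMPs and 2343 CPM or more in the 6 other young fractions. It was also called higher with age in GMPs, from 17.2 to 722 CPM (log2 fold change 5.39), and lower in CLPs (log2 fold change -2.09). Gm6182 had 0 and 0 against 155 and 284 counts and was not called (adjusted p 0.0492).

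Immediate early and heat shock genes had 9 higher (22.5%, against 9.08% of all tested genes) and 6 lower (15%, against 11.7%) of 40, and 5 to 7 higher when any 1 MEP library was left out. Jun, the partner of FOS, rose from 22.2 and 20.7 to 130 and 135 CPM (log2 fold change 2.63, SE 0.21). The heat-induced chaperone Hspa1a had 81 and 85 counts in young and 715 and 3050 in aged MEPs, and Hspa1b 137 and 106 against 769 and 3310, so both rose (log2 fold changes 4.87 and 4.44) while the aged duplicates differed widely. These are near-identical copies. Hspa1a was also called higher in 6 of the other 7 fractions, with log2 fold changes from 0.94 to 6.48 over all 7. Hspa8, the constitutive member of that family, fell from 5834 and 5622 to 4782 and 3948 CPM (log2 fold change -0.39), a call that offsets for GC content and length ended (log2 fold change -0.24, adjusted p 0.0175).

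Of 84 interferon-induced genes tested, 28 were higher (33.3%, against 9.08% over all tested genes) and 9 lower (10.7%, against 11.7%), with a median log2 fold change of 0.28, and 22 to 26 were higher when any 1 MEP library was left out. Zbp1, a sensor of Z-form nucleic acids (chromosome 2, 173206612 to 173218923), rose from 1.34 and 1.36 to 13.1 and 14.5 CPM (log2 fold change 3.34, SE 0.24, adjusted p 1.17e-09). Iigp1, an immunity-related GTPase, rose from 2.75 and 1.36 to 61.8 and 62.9 CPM (log2 fold change 4.89, SE 0.38). Oasl2, an oligoadenylate synthetase-like protein (chromosome 5, 114896936 to 114912234), rose from 4.29 and 5.53 to 24.27 and 20.998 CPM (log2 fold change 2.21, SE 0.13), and Nlrc5, the transactivator of MHC class I genes, from 4.93 and 6.68 to 23.9 and 28.1 CPM (log2 fold change 2.17, SE 0.17). Both aged libraries lay above both young ones for all 4.

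Tap1, a peptide transporter of the MHC class I pathway, rose from 132 and 141 to 219 and 272 CPM (log2 fold change 0.85, SE 0.10), and H2-K1, a class I heavy chain, from 630 and 665 to 976 and 1033 CPM (log2 fold change 0.63, SE 0.08), although class I genes share reads between near-identical copies. Irf1, a factor that interferon induces, rose from 12.5 and 15.3 to 30.7 and 38.3 CPM. Other interferon genes were not called or fell. Irf7 had means of 38.6 and 46.3 CPM (adjusted p 0.235) and Isg15 5.55 and 8.66 CPM (adjusted p 0.0107), neither called in the full fit. Isg15 was close to the threshold and was called higher with offsets for GC content and length (log2 fold change 0.72, adjusted p 2.25e-03). Rsad2, an antiviral enzyme, fell from 16.4 and 14.1 to 7.87 and 8.95 CPM (log2 fold change -0.86, SE 0.15). Its call was lost in the fit on the 4 MEP libraries alone (-0.88, adjusted p 0.0267).

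The promoters of the interferon genes were searched for the core letters of the interferon-stimulated response element, TTTC followed by any 2 bases and TTTC, on either strand, in the 250 bases upstream of each RefSeq start site (GRCm38.p6). Of 28 genes called higher, 21 had a promoter in the reference and 9 of these held the letters (42.9%), against 13 of 33 interferon genes not called (39.4%), 4 of 9 called lower (44.4%) and 3.33% of all tested genes with a promoter. The share was thus alike in the members that rose, fell or were not called. The windows of 5 genes that rose are shown to display how the letters sit in them, 5′ to 3′ on the strand of the gene, with the matching letters in capitals. Irgm2 and Igtp are neighbouring immunity-related GTPases on chromosome 11 with nearly the same window, and Gbp2 and Gbp3 are guanylate-binding proteins of 1 cluster on chromosome 3.
Irgm2, chr11:58214888-58214947, plus strand: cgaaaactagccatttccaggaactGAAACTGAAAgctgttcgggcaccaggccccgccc
Igtp, chr11:58199497-58199555, plus strand: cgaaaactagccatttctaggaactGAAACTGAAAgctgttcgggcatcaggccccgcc
Gbp3, chr3:142559980-142560039, plus strand: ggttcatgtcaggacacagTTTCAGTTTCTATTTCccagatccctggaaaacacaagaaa
Gbp2, chr3:142620579-142620638, plus strand: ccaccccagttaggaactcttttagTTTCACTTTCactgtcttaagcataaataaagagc
Bst2, chr8:71537562-71537621, minus strand: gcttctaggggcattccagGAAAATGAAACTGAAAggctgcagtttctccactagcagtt

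Igtp rose from 33.7 and 41.9 to 137 and 159 CPM (log2 fold change 1.97, SE 0.15), and Irgm2 from 7.17 and 8.76 to 31.4 and 39.3 CPM (log2 fold change 2.15, SE 0.18). Gbp2 rose from 6.91 and 7.11 to 19.1 and 23.6 CPM (log2 fold change 1.61, SE 0.23) and Gbp3 from 8.90 and 4.59 to 19.9 and 27.6 CPM (log2 fold change 1.80, SE 0.25). Bst2, the antiviral tetherin, rose least, from 41.4 and 36.2 to 61.8 and 67.1 CPM (log2 fold change 0.73, SE 0.14), and its call was lost without young replicate 2 (0.59, adjusted p 0.0122) and without aged replicate 2 (0.63, adjusted p 0.0112).

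Cell cycle genes were counted by phase, and the difference between the phases was not tested. S phase genes had 0 higher and 15 lower of 43 (34.9% lower, against 11.7% over all tested genes), with a median log2 fold change of -0.20. Ccne2, the cyclin of S phase entry, fell from 84.9 and 84.1 to 46.5 and 50.3 CPM (log2 fold change -0.80, SE 0.10), and Rrm2, a ribonucleotide reductase subunit, from 1108 and 1123 to 781 and 798 CPM (log2 fold change -0.50, SE 0.07). G2M genes had 10 higher (18.5%, against 9.08%) and 4 lower of 54, with a median of 0.10. Their summed level was 14227 and 13615 CPM in young and 14292 and 14062 CPM in aged MEPs. Mki67, the proliferation antigen, rose from 133 and 125 to 319 and 255 CPM (log2 fold change 1.15, SE 0.21), and Cenpe, a mitotic kinesin, from 44.6 and 50.2 to 110 and 96.1 CPM (log2 fold change 1.12, SE 0.17). Of the 4 called lower, Fam64a fell from a mean of 13.8 to 2.17 CPM and G2e3 from 83.5 to 42.5 CPM. GMPs went from 33.4 to 169 CPM for Mki67 and from 20.0 to 74.9 CPM for Cenpe. In the contrast of age differences with GMPs, 16 G2M genes were further down in MEPs and 0 further up. With offsets for GC content and length, 3 S phase genes were higher and 6 lower and 19 G2M genes were higher, and leaving out any 1 MEP library left 3 to 4 G2M genes higher and 9 to 15 S phase genes lower, with the 9 found without aged replicate 1. Cdkn1a, the p21 inhibitor of cyclin-dependent kinases, fell from 6.08 and 8.11 to 1.31 and 1.55 CPM (log2 fold change -2.29, SE 0.22), and the list of such inhibitors and p53 targets had 4 higher and 10 lower (29.4%) of 34, and 6 lower without aged replicate 2.

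Atf4, the factor of the integrated stress response, rose from 115 and 102 to 199 and 196 CPM (log2 fold change 0.86, SE 0.09, adjusted p 5.39e-07). Its target Ddit3 rose from 8.77 and 7.61 to 16.9 and 17.8 CPM (log2 fold change 1.08, SE 0.19). The list they belong to had 5 higher and 6 lower of 35 (31.4% called, against 20.8%), and 2 to 4 higher and 2 to 5 lower when any 1 MEP library was left out. Splicing factors had 15 higher (24.6%, against 9.08% of all tested genes) and 6 lower of 61, with Srsf5 rising from 203 and 205 to 392 and 393 CPM (log2 fold change 0.94, SE 0.09), Pnisr from 20.6 and 23.2 to 55.5 and 51.8 CPM (log2 fold change 1.29, SE 0.14), and Srsf2 falling from 1667 and 1620 to 1256 and 1215 CPM (log2 fold change -0.41, SE 0.05). Offsets for GC content and length turned the split to 29 higher and 2 lower. Cholesterol synthesis and uptake genes had 6 higher (21.4%) and 0 lower of 28, but 1 to 3 higher when a library was left out. Ribosomal protein genes had 0 higher and 2 lower of 79 and oxidative phosphorylation genes 3 higher and 2 lower of 77, shares below the 20.8% called over all tested genes. Markers of progenitor stages had 1 higher and 5 lower of 14 (42.9% called, against 20.8% over all tested genes). Basophil, mast cell and eosinophil genes had 1 higher and 2 lower of 25 (12% called), and plasma cell, stromal and endothelial genes 1 higher and 3 lower of 19 (21.1% called). Genes raised in aged stem cells had 3 higher and 3 lower of 39 (15.4% called, below the 20.8%), and Selp, the best known of them, had 10 and 2 counts in young and 8 and 11 in aged MEPs.

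Rn45s, the ribosomal RNA precursor, was the most abundant feature and fell from 0.9665% and 1.001% of counts in young to 0.3155% and 0.3371% in aged MEPs (log2 fold change -1.59, SE 0.20, adjusted p 3.22e-06). Rn45s was also called lower in 2 of the other 7 fractions, with log2 fold changes from -2.25 to 0.149 over all 7. Its part in other results was not tested, and with this feature left out of the library totals, an alternative chosen after seeing the data, 1106 genes were called higher and 1856 lower.

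Whether the age difference of MEPs differed from that of other fractions was tested by contrasts of the differences. Against GMPs, the sister progenitors on the myeloid side, 946 genes differed (6.68%), with the MEP value further up for 177 (1.25%) and further down for 769 (5.43%). Further up and further down describe the difference between fractions, and either fraction may have moved. Against the mean of all 7 other fractions 2495 differed (17.6%), with 960 further up (6.78%) and 1535 further down (10.8%). Coro1a, Lcp1, Pkm, Pde2a, Rasgrp2 and Rcsd1 had the smallest adjusted p-values among genes further down in both, though not the largest differences. They differed by -2.73, -2.28, -2.67, -5.02, -4.48 and -3.79 from the mean of the other 7.

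Gm12250, an interferon-inducible GTPase gene (chromosome 11, 58187739 to 58189012), was among the genes further up with the smallest adjusted p-values in both contrasts. Gm12250 had 8.07 and 5.74 CPM in young and 51.8 and 57.0 CPM in aged MEPs (log2 fold change 2.97, SE 0.15), with 0.34 in GMPs and 0.34 to 1.23 over the other 7 fractions, and differed by 2.63 from GMPs (adjusted p 5.54e-09) and by 2.36 from the mean of the others (adjusted p 3.38e-10). For Nlrc5 the rise in GMPs (log2 fold change 2.03) was near that in MEPs, with a difference of 0.14 (SE 0.24, adjusted p 0.839). Young MEPs and young GMPs had the lowest Oasl2 levels of all groups, at 4.91 and 7.98 CPM against 18.4 to 185 CPM in the other young fractions. Oasl2 rose in aged MEPs to 22.6 CPM and differed by 1.09 from GMPs (adjusted p 3.6e-04).

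Gas5, a small nucleolar RNA host gene, rose in MEPs from 26.0 and 26.3 to 70.7 and 75.0 CPM (log2 fold change 1.48, SE 0.09) and was called lower with age in 5 of the other 7 fractions. Srsf5 likewise was called lower in 4 of the 7 and higher in GMPs. Gfi1b differed between MEPs and GMPs by 2.16 (adjusted p 2.69e-05), with group means of 6.45 CPM in young and 1.70 CPM in aged GMPs against 481 and 570 CPM in MEPs. Rcn1, a calcium-binding protein of the endoplasmic reticulum, rose from 43.86 and 45.007 to 85.5 and 88.6 CPM in MEPs (log2 fold change 0.97, SE 0.07) and was called in none of the other 7.

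**Figure D5:**
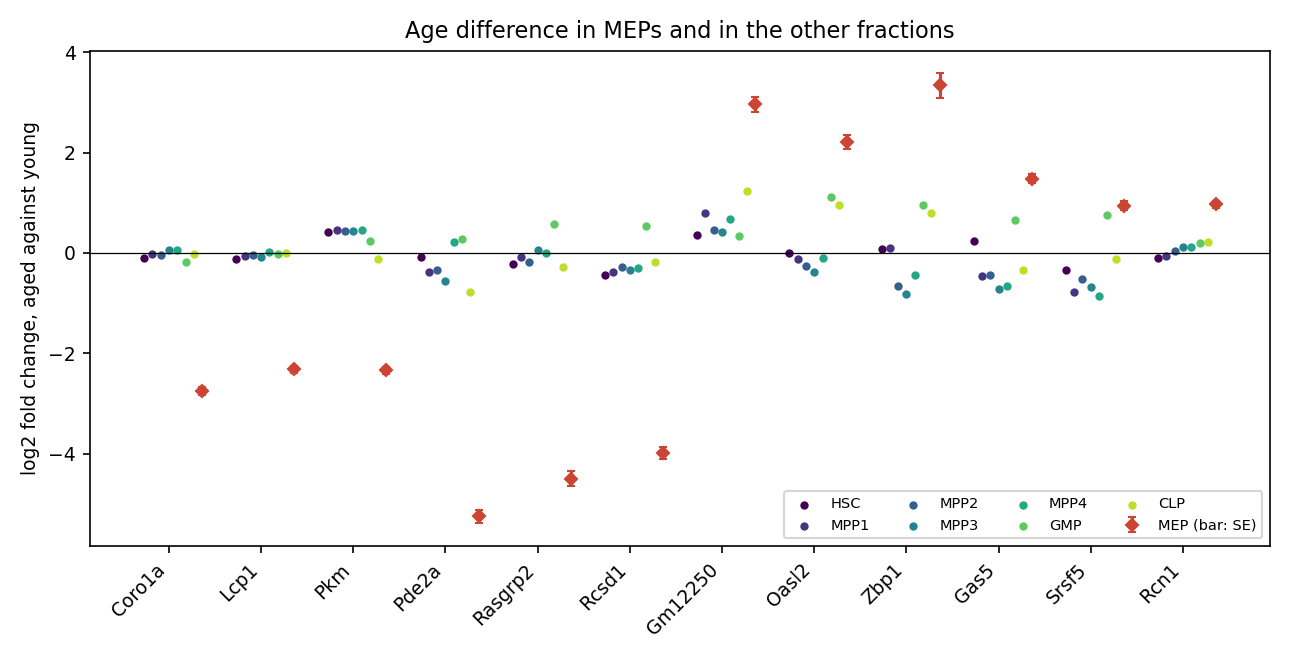
Log2 fold change with age in MEPs (red diamonds, with standard error) and in the 7 other fractions (coloured dots) for 12 of the genes described in the text. The MEP values of the 6 genes on the left, from -2.32 for Lcp1 to -5.25 for Pde2a, lie below those of every other fraction, and those of Gm12250, Oasl2, Zbp1, Gas5, Srsf5 and Rcn1 lie above them.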

How the data were processed

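Total RNA from sorted cells was extracted with the RNeasy Plus Micro kit, amplified as full-length cDNA with the SMARTer Ultra Low Input kit, sonicated and made into libraries with NEBNext Ultra. The authors aligned reads to mm10 with TopHat2 2.0.13 and Bowtie2 2.1.0 and obtained gene counts with StringTie. The deposited table holds counts per gene, not normalized. Use of strand is not given in the sources used here. Columns of the authors' own comparisons (fold changes, Wald statistics and p-values) were not used.

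Of 24421 genes in the table, 23350 symbols matched GENCODE M21 (GRCm38) directly, 669 through an older symbol and 402 not at all, and 27 that a spreadsheet had turned into dates are not named. A few other genes are not reported here, in the text or the plots, but entered every fit and count. Libraries were grouped by their labels. Genes passing filterByExpr were fitted with edgeR 4.0.16 in R 4.3.3 (TMM scaling, quasi-likelihood test, 16 group means over all 32 libraries, 16 residual degrees of freedom), and genes with a Benjamini-Hochberg adjusted p under 0.01 were called. Adjusted p-values in the text come from this fit and test unless another fit, setting or tool is named with the value. Contrasts gave the age difference of MEPs, and that difference minus the one of GMPs or minus the mean of the 7 other fractions. The scripts were tested on simulated counts.

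A floor of 3 counts was used for bounds on folds. It corresponds to 0.192 to 0.281 CPM in the MEP libraries and covers counting error only, since reads carried no molecular identifiers. Differences between MEP duplicates exceeded counting noise (chi-square per degree of freedom 14.3 in young and 8.75 in aged), so none were merged. Total counts of the 32 libraries ran from 11237384 to 17723245.

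The comparison, its gene lists and the rules below were chosen with earlier results of these data known. Genes were named by the following rule: the 12 largest called changes in each direction with a mean of 5 CPM or more, genes at the floor in 1 age, up to 5 called members of each list with its defining members, the strongest genes of each contrast between fractions, a set of identity genes and the most abundant genes. Others were named after their values were seen: Blk, Blnk, Bst2, Camp, Cd34, Cd37, Cd74, Cecr2, Ctsg, E2f4, Fcrla, Gbp2, Gbp3, H2-K1, Igtp, Irf1, Irf7, Irf8, Irgm2, Isg15, Jun, Lcn2, Ltf, Ly6a, Ly6d, Mmp8, Mpeg1, Ms4a1, Ms4a3, Pax5, Prtn3, Rag1, Rrm2, Rsad2, S100a8, S100a9, Srsf2, Tap1 and Vpreb1. Alternatives were DESeq2 1.42.0 and its size factors, no filter on low counts, thinned counts, offsets for GC content and length, a replicate block, other thresholds, fewer libraries, and 2 chosen after seeing the data.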

Additional observations from a re-analysis of the deposited data

Results flagged for a closer look

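The age difference of MEPs was set against that of other fractions, and the genes with the strongest statistics in each direction are given here, as the log2 fold change of MEPs minus the other (edgeR, Benjamini-Hochberg adjusted p). Against GMPs the MEP value was further down by -5.53 for Pde2a (adjusted p 1.67e-15), -4.53 for Rcsd1 (2.59e-15), -5.08 for Rasgrp2 (3.14e-15), -2.58 for Pkm (3.02e-14), -2.29 for Lcp1 (7.5e-14) and -2.57 for Coro1a (2.05e-13). It was further up by 2.63 for Gm12250 (5.54e-09), 1.02 for Tmem109 (2.54e-06), 2.23 for Dnaja4 (3.44e-06), 0.77 for Rcn1 (9.46e-06) and 2.16 for Gfi1b (2.69e-05). Dnaja4 did not rise in MEPs, with means of 39.0 CPM in young and 34.0 CPM in aged MEPs, against 3.66 and 0.669 CPM in young and aged GMPs. Adamts13 gave 9.93 (2.74e-11), a fitted value with no meaning as a size because aged GMPs had a mean of 0 CPM, against 8.80 CPM in young GMPs and 10.3 and 10.4 CPM in young and aged MEPs.

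Against the mean of the 7 other fractions the MEP value was further down by -5.02 for Pde2a (3.39e-16), -2.67 for Pkm (3.39e-16), -2.28 for Lcp1 (1.04e-15), -2.73 for Coro1a (1.04e-15), -4.48 for Rasgrp2 (3.38e-15) and -3.79 for Rcsd1 (3.7e-15). It was further up by 1.73 for Gas5 (2.53e-11), 2.36 for Gm12250 (3.38e-10), 2.04 for Oasl2 (6.11e-10), 1.30 for Srsf5 (1.14e-09) and 4.09 for Gm12185 (2.74e-09). Fos gave 12.41 (1.21e-10), again no size, because both young MEP libraries had 0 counts. Each of these differences was tested as a contrast in the fit over all libraries.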

How the results depend on the processing

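Of the genes called in aged against young MEPs, 99.0% were also called by DESeq2 (1441 higher, 2305 lower) and 81.4% with offsets for GC content and length, which gave 2085 higher and 1180 lower, raised the share of higher among calls from 43.7% to 63.9% and moved the median log2 fold change of detected genes to 0.12. That share was 30.6% with no filter on low counts and 31.8% with thinned counts. An adjusted p under 0.05 gave 2143 higher and 2493 lower, a log2 fold change of 1 or more in size gave 249 and 796, and the 4 MEP libraries alone gave 311 and 423. Leaving out 1 MEP library gave 585 to 929 higher and 1098 to 1686 lower.

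For MEPs against GMPs the 177 genes further up became 98 with no filter, 97 with thinned counts, 347 with DESeq2 (1161 further down), 1140 with GC and length offsets, 582 at an adjusted p under 0.05 (1244 further down), 63 at an absolute log2 difference of at least 1, and 21 from the 8 MEP and GMP libraries alone (261 further down). Leaving out 1 library gave 62 to 196 further up, the lowest without aged GMP replicate 1, and 584 to 893 further down. Against the mean of the other 7 fractions, an adjusted p under 0.05 gave 1645 up and 2330 down, an absolute log2 difference of at least 1 gave 227 and 655, and leaving out 1 library gave 419 to 932 up, the lowest without aged MEP replicate 2, and 1034 to 2007 down. With at least 5 CPM in the other age, 4 genes were at the floor in young and 24 in aged MEPs, and leaving out 1 library gave 2 to 4 and 14 to 19. Where a library is left out its partner is assumed to vary like the other groups.

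The difference between replicates 1 and 2 correlated by -0.0176 across genes between young and aged MEPs, so no pairing by replicate number was seen over all genes. That value cannot exclude a pairing that acts on some genes only. A replicate block gave 1282 higher and 1630 lower in MEPs, and with GC and length offsets 1991 and 1126. With that block and those offsets 990 genes were further up in MEPs than in GMPs.

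Some genes that were not called changed sign. The log2 fold change of Tal1 was -0.00321 with the size factors of DESeq2, -0.0409 with no filter, -0.00313 with DESeq2, -0.029 with thinned counts, -0.00267 without Rn45s in the totals, and -0.13 to 0.135 when 1 library was left out. Near the floor these ranges were -4.98 to 5.48 for Ly6a, -3.96 to 0 for Blk, -7.00 to 0 for Fcrla, -7.27 to 0 for Ms4a1, -8.76 to 0.0365 for S100a8, -6.86 to 1.97 for S100a9, -5.31 to 5.51 for Camp (-0.0626 with thinned counts), 0 to 5.72 for Lcn2, 0 to 8.07 for Ltf and 0 to 6.55 for Mmp8.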
